A study of Homo sapiens with 6 samples.

Results

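The Hippo pathway and its YAP targets are represented here by 10 genes, chosen by symbol from the 57773 Ensembl gene IDs of the deposited table. They are the coactivator genes YAP1 and WWTR1, the DNA-binding partner TEAD1, the kinases LATS1 and LATS2, the angiomotin family members AMOTL1 and AMOTL2, and the transcriptional targets CCN1, CCN2 (CYR61 and CTGF in older names) and ANKRD1. All 10 matched 1 ID each: YAP1 (ENSG00000137693), TEAD1 (ENSG00000187079) and AMOTL1 (ENSG00000166025) on chromosome 11, WWTR1 (ENSG00000018408) and AMOTL2 (ENSG00000114019) on chromosome 3, LATS1 (ENSG00000131023) and CCN2 (ENSG00000118523) on chromosome 6, LATS2 (ENSG00000150457) on chromosome 13, CCN1 (ENSG00000142871) on chromosome 1 and ANKRD1 (ENSG00000148677) on chromosome 10. The libraries come from RPE1, a telomerase-immortalised human line derived from the retinal pigment epithelium, given 2.5 µM Nutlin-3 for 24 h (3 libraries) or the solvent DMSO for the same time (3 libraries). Nutlin-3 occupies the pocket of MDM2 that binds p53, so that p53 is no longer held low, and the series asks which genes respond. Both groups are the same line without any labelled genetic change.

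In the Hippo pathway, MST kinases activate the LATS kinases, and LATS phosphorylates YAP and TAZ (the protein of WWTR1), which keeps them out of the nucleus or marks them for breakdown. When LATS is inactive, as in spread cells on a stiff surface at low density, YAP and TAZ enter the nucleus, bind TEAD factors and switch on genes such as CCN1, CCN2 and ANKRD1. Much of this control acts on the proteins, and the data here are RNA levels.

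The promoters below are shown because they hold the TEAD core motif, GGAATG or its reverse complement CATTCC, in the 250 bases before a RefSeq transcript start (build GRCh38.p14, sequences from RefSeq). Capitals mark the motif. CCN2 and ANKRD1 are textbook YAP targets, AMOTL2 and ANKRD1 had the largest rises described below, and YAP1 is shown because its promoter also holds the motif. The windows are chr6:131951373-131951622 on the minus strand for CCN2, chr10:90921088-90921337 on the minus strand for ANKRD1, chr3:134374448-134374697 on the minus strand for AMOTL2 and chr11:102110197-102110446 on the plus strand for YAP1.
CCN2: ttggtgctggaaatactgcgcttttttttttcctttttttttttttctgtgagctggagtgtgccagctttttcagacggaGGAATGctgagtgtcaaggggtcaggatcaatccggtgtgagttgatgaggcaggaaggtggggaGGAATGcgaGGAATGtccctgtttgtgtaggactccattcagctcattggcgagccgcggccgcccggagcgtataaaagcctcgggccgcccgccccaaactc
ANKRD1: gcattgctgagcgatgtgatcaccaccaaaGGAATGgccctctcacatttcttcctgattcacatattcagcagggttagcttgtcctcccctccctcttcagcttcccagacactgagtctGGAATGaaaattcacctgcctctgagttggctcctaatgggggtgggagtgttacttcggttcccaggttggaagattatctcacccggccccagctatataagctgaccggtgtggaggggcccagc
AMOTL2: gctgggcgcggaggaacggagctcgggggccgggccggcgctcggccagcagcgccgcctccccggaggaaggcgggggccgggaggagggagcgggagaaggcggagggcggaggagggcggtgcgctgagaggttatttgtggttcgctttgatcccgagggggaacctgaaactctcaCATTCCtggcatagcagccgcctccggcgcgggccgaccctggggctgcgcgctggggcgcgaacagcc
YAP1: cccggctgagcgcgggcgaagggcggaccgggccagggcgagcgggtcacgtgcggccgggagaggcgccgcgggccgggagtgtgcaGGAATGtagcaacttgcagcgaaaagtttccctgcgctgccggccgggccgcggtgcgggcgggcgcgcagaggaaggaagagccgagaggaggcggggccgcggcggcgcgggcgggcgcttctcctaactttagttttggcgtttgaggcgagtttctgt

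RefSeq windows were at hand for 8 of the 10 genes, 11 windows in all, and 4 of the 11 held the motif. CCN1 and TEAD1 had no window and were not searched. CCN2 had 3 copies, with their first bases 169, 104 and 95 bases before the start. ANKRD1 had 2, at 220 and 128 bases. AMOTL2 had 1, at 69 bases and on the reverse strand, in the promoter of 1 of its 2 transcript starts, and YAP1 had 1 at 162 bases. Over 34943 such windows of all genes, 11.9% held at least 1 copy, 0.942% at least 2 and 0.083% at least 3. All motifs were searched on both strands. Neither the CArG box, the site of the factor SRF, nor the p53 decamer, the repeated unit of p53 response elements, was found in any of the 11 windows, against 1.16% and 5.58% of all windows, so no TEAD motif overlapped either. A match of letters is not a bound site, and a window without a match says nothing about the factor.

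The deposited unit is RPKM, reads per kilobase of gene scaled to the size of the library, and the length used was the whole gene span with introns. A gene with long introns such as TEAD1 therefore has a low RPKM for its reads, and RPKM are compared below only between libraries. Levels of different genes are compared as reads recovered from the RPKM per kilobase of merged exon, scaled to library size like the RPKM and called exon level here. Whether reads in introns were counted is not given. If they were, the exon levels and shares of genes with long introns would be too high. The 6 libraries held 28394368 to 41011871 recovered reads, and the members 823 reads (LATS2, DMSO replicate 2) to 52084 reads (ANKRD1, Nutlin-3 replicate 2) per library. Of 19886 genes tested, 4151 were higher with Nutlin-3 (20.9%) and 3652 lower (18.4%), 39.2% in all, at an adjusted p under 0.05 by limma with Benjamini-Hochberg adjustment over all of them, and the median log2 fold change of all was 0.0058. As a check of the treatment labels, the p53 target CDKN1A averaged 60.5 ± 2.34 RPKM with Nutlin-3 and 8.36 ± 0.463 RPKM with DMSO, and MDM2 averaged 8.46 ± 0.225 RPKM with Nutlin-3 and 2.31 ± 0.0866 RPKM with DMSO (SD, n = 3 each). Of 12 pigment epithelium genes taken as markers, 9 had a mean under 0.1 RPKM, among them RPE65, and DCT and TTR were at 0 in every library. OTX2, PAX6 and MITF were present, OTX2 fell to 81.9% of its DMSO mean (limma adjusted p = 0.0333), and the 12 genes summed to 4.48 to 4.80 RPKM with Nutlin-3 and 4.94 to 5.43 RPKM with DMSO. Of the 12, 6 averaged at least 10 recovered reads, so a mean under 0.1 RPKM did not always mean almost no reads. Most of the 12 were therefore low per gene span, and their exon levels are not given here. No label says that the 3 libraries of a group are independent cultures, and the p-values cover the variation among these libraries alone.

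Of the 10 members, ANKRD1, AMOTL2 and AMOTL1 were higher with Nutlin-3, none was lower and 7 did not pass, against 20.9% higher and 18.4% lower (39.2% either way) over all tested genes. ANKRD1 and AMOTL2 rose 1.58-fold each, as ratios of mean RPKM, while AMOTL1 rose 1.08-fold. All 10 members passed the filter on low values, a mean of at least 0.1 RPKM. Their log2 fold changes ran between -0.05 for LATS1 and 0.66 for ANKRD1 with a median of 0.07. ANKRD1, AMOTL2 and AMOTL1 were also the members whose groups did not overlap in RPKM, all with the Nutlin-3 libraries higher. Over all tested genes 27.6% had such a pattern and 25.7% the opposite one. With limma voom on recovered reads, LATS2 and CCN2 passed too, making 5 members higher and none lower, where 26% of the 20728 genes tested were higher and 24.3% lower (50.3% either way). Both fits used the library sizes behind the RPKM. Those sizes lay below the recovered reads with Nutlin-3 and above them with DMSO, so neither count of members checks that scaling. The changes of ANKRD1 and AMOTL2 were matched or passed by 895 and 901 of the 19886 tested genes, counting themselves.

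**Figure D1:**
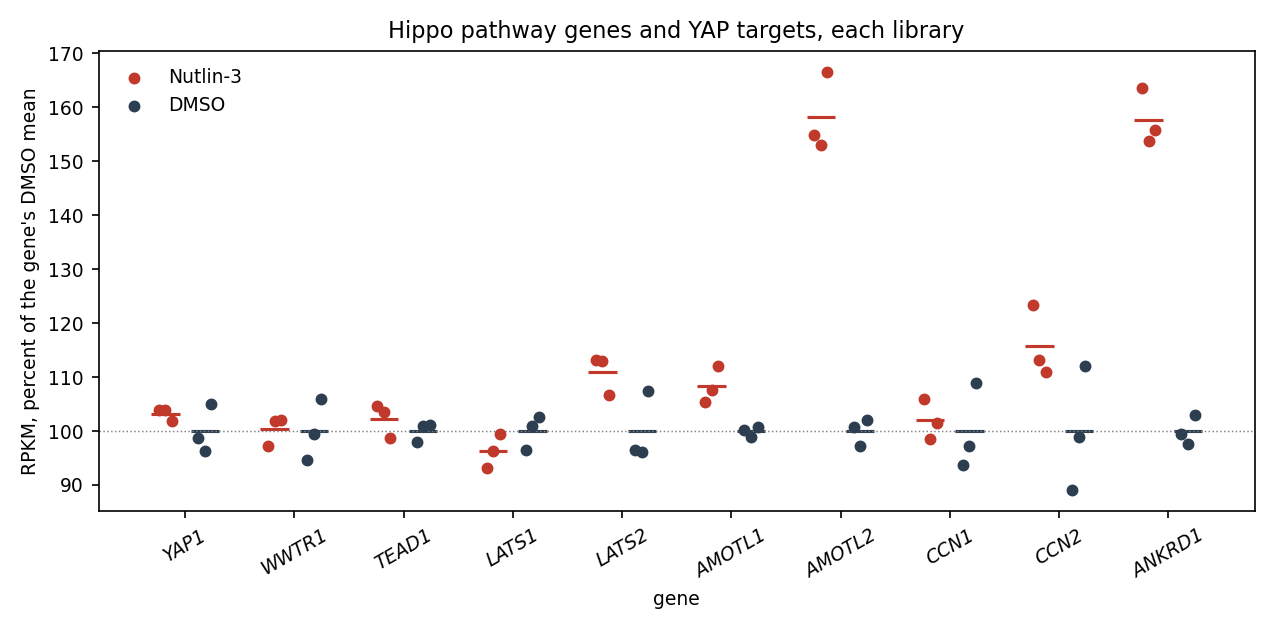
RPKM of the 10 genes in each library as a percentage of the gene's mean over the DMSO libraries, with a point per library (Nutlin-3 left in red, DMSO right in dark blue) and a bar at each group mean. The points of AMOTL2 and ANKRD1 stand clear of their DMSO points, at group means of 158% each, while those of YAP1, WWTR1, TEAD1, LATS1, LATS2, CCN1 and CCN2 overlap theirs.

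YAP1 encodes the coactivator on which LATS signalling converges. It stood at 1.81, 1.81 and 1.77 RPKM in Nutlin-3 replicates 1 to 3 and at 1.71, 1.67 and 1.83 RPKM in DMSO replicates 1 to 3. The groups overlapped because DMSO replicate 3 was the highest of the 6. The log2 fold change was 0.04 (SE 0.038, 95% interval -0.05 to 0.14, limma adjusted p = 0.417). WWTR1, the gene of the YAP relative TAZ, stood at 0.485, 0.508 and 0.508 RPKM with Nutlin-3 and at 0.472, 0.496 and 0.528 RPKM with DMSO. Here the DMSO values enclosed the Nutlin-3 values on both sides, with a log2 fold change of 0.0055 (SE 0.046, 95% interval -0.11 to 0.12, limma adjusted p = 0.941). By exon level YAP1 was the more abundant, at 35.0 ± 0.404 with Nutlin-3 and 33.9 ± 1.55 with DMSO (SD, n = 3 each). YAP1 made up 72.9% ± 0.673 of the summed exon level of the coactivator pair with Nutlin-3 and 72.3% ± 0.750 with DMSO (2-sided exact permutation p = 0.4, n = 3 each, smallest possible p = 0.1).

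TEAD1 encodes a DNA-binding partner that brings YAP and TAZ to promoters. It stood at 1.05, 1.04 and 0.992 RPKM with Nutlin-3 and at 0.986, 1.01 and 1.02 RPKM with DMSO. The groups overlapped, and the log2 fold change was 0.03 (SE 0.032, 95% interval -0.05 to 0.11, limma adjusted p = 0.523). Of its 3 relatives, TEAD3 rose, and TEAD2 and TEAD4 fell. TEAD3 rose to 2.89, 2.88 and 2.95 RPKM with Nutlin-3, against 2.06, 2.06 and 2.03 RPKM with DMSO (log2 fold change 0.49, limma adjusted p = 1.66e-04). TEAD4 fell to 0.164, 0.167 and 0.164 RPKM with Nutlin-3, against 0.242, 0.222 and 0.216 RPKM with DMSO, which is 72.7% of its DMSO mean (limma adjusted p = 0.0106). TEAD2 fell to 91.1% (limma adjusted p = 0.0223), a call lost without Nutlin-3 replicate 1 or 2 or without DMSO replicate 2 or 3, with adjusted p from 0.0646 to 0.0815. In the summed exon level of the 4 genes, TEAD1 held 40.5% ± 1.13 with Nutlin-3 and 42.1% ± 0.746 with DMSO (2-sided exact permutation p = 0.2, adjusted over 5 such shares 0.25, n = 3 each). TEAD3, whose share was looked at after its rise was seen, held 33.6% ± 0.585 with Nutlin-3 and 25.1% ± 0.149 with DMSO, and no library of a group reached the range of the other.

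**Figure D2:**
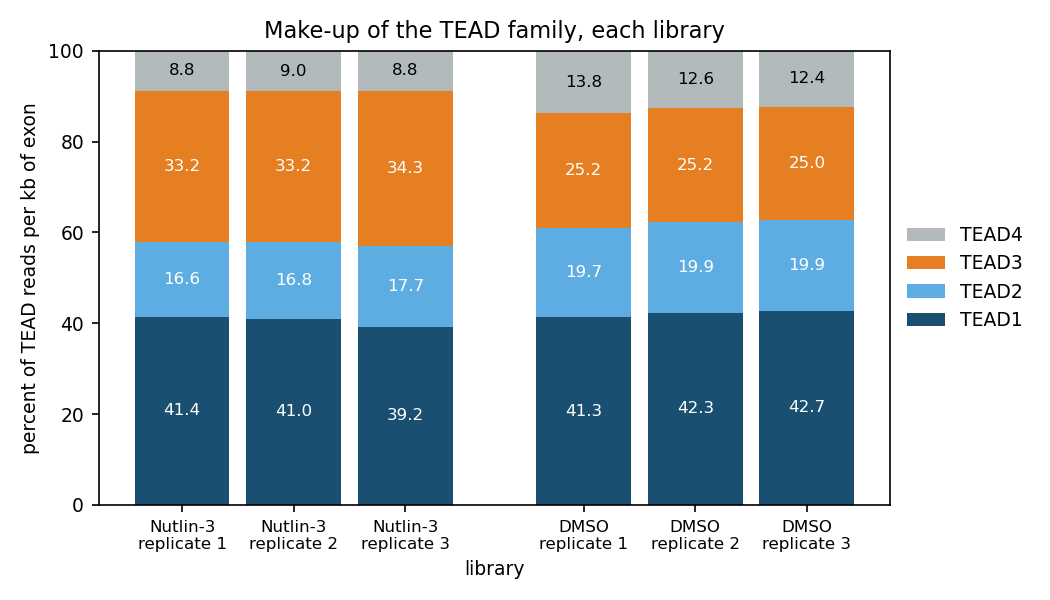
Share of each TEAD gene in the summed exon level (reads per kilobase of merged exon) of TEAD1 to TEAD4, in percent, for each library, Nutlin-3 libraries on the left and DMSO libraries on the right. The TEAD3 band is 33.2% to 34.3% high in Nutlin-3 libraries and 25.0% to 25.2% in DMSO libraries, the TEAD4 band is narrower in Nutlin-3 libraries, and the TEAD1 band overlaps between the groups.

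LATS1 and LATS2 encode the kinases that phosphorylate YAP and TAZ. LATS1 stood at 0.623, 0.644 and 0.666 RPKM with Nutlin-3 and at 0.646, 0.676 and 0.686 RPKM with DMSO. The values overlapped, and the log2 fold change of -0.05 did not pass (SE 0.037, 95% interval -0.14 to 0.05, limma adjusted p = 0.370). LATS2, itself a YAP target that feeds back on the pathway, stood at 0.367, 0.367 and 0.346 RPKM with Nutlin-3 and at 0.313, 0.312 and 0.348 RPKM with DMSO. Nutlin-3 replicate 3 lay below DMSO replicate 3, while the other Nutlin-3 libraries were above all DMSO libraries. Its log2 fold change of 0.12 did not pass (SE 0.051, 95% interval -0.01 to 0.25, limma adjusted p = 0.131), but the recovered reads gave 0.15, which did (limma voom adjusted p = 0.0180). LATS2 made up 56.0% ± 1.60 of the summed exon level of both kinases with Nutlin-3 and 52.5% ± 1.17 with DMSO (2-sided exact permutation p = 0.1, the smallest that 3 against 3 libraries allow, adjusted over 5 shares 0.167).

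AMOTL1 and AMOTL2 encode scaffold proteins of the angiomotin family that bind YAP at cell junctions and on actin, and AMOTL2 is also a target gene of YAP. AMOTL2 stood at 9.30, 9.20 and 10.0 RPKM with Nutlin-3 and at 6.05, 5.85 and 6.13 RPKM with DMSO. The lowest Nutlin-3 value lay well above the highest DMSO value, and the log2 fold change was 0.65 (SE 0.042, 95% interval 0.55 to 0.76, limma adjusted p = 3.40e-04). AMOTL1 stood at 0.917, 0.936 and 0.975 RPKM with Nutlin-3 and at 0.873, 0.861 and 0.877 RPKM with DMSO. The groups did not overlap but lay close, with a log2 fold change of 0.10 (SE 0.030, 95% interval 0.03 to 0.18, limma adjusted p = 0.0455). Leaving out any of the 6 libraries ended the call of AMOTL1 (adjusted p from 0.0532 to 0.125), while its recovered reads gave 0.11 and passed (limma voom adjusted p = 8.49e-03). limma voom used the library sizes behind the RPKM, so it does not check that scaling. Those sizes were 0.962 to 0.981 times the recovered reads with Nutlin-3 and 1.03 to 1.05 times with DMSO. Median-of-ratios scaling and quantile normalization kept the call (limma adjusted p = 0.0468 and 0.0122). AMOTL1 held 4934, 5711 and 5046 reads with Nutlin-3, in libraries of 32199124, 36962897 and 31598986 recovered reads. With DMSO it held 6281, 4369 and 4843, in libraries of 41011871, 28394368 and 31342641. Scaled to these totals, AMOTL1 would rise less, because the sizes behind the RPKM sit below them with Nutlin-3 and above them with DMSO. On that scale Nutlin-3 replicate 1 would lie below DMSO replicate 3, so the groups would overlap. A fit on that scale was not tested. AMOTL2 made up 66.0% ± 0.518 of the summed exon level of these 2 genes with Nutlin-3 and 57.1% ± 0.356 with DMSO (2-sided exact permutation p = 0.1, the smallest possible, adjusted over 5 shares 0.167, n = 3 each). The X-linked family founder AMOT was low, at 0.159 ± 0.0124 RPKM with Nutlin-3 and 0.149 ± 0.0173 RPKM with DMSO, and did not pass (log2 fold change 0.06, limma adjusted p = 0.629).

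Of the 3 targets, ANKRD1 rose, and CCN1 and CCN2 did not pass. ANKRD1, an ankyrin repeat protein abundant in heart muscle, stood at 168.7, 158.4 and 160.6 RPKM with Nutlin-3 and at 102.5, 100.5 and 106.2 RPKM with DMSO. Every Nutlin-3 library lay above every DMSO library, with a log2 fold change of 0.66 (SE 0.035, 95% interval 0.57 to 0.75, limma adjusted p = 2.14e-04). CCN1, a secreted matricellular protein, stood at 181.8, 169.1 and 174.1 RPKM with Nutlin-3 and at 160.9, 167.0 and 187.0 RPKM with DMSO. DMSO replicate 3 was the highest and DMSO replicate 1 the lowest of the 6, so that the Nutlin-3 values lay inside the DMSO range. The log2 fold change was 0.03 (SE 0.065, 95% interval -0.13 to 0.19, limma adjusted p = 0.754), and its sign turned under quantile normalization, to -0.23, outside that interval (limma adjusted p = 0.0520).

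CCN2, the connective tissue growth factor, stood at 119.5, 109.7 and 107.4 RPKM with Nutlin-3 and at 86.2, 95.8 and 108.5 RPKM with DMSO. The groups overlapped through DMSO replicate 3, which lay above Nutlin-3 replicate 3. Its log2 fold change of 0.22 did not pass (SE 0.094, 95% interval -0.02 to 0.46, limma adjusted p = 0.133). Without DMSO replicate 3 it was 0.30 and passed (limma adjusted p = 0.0404), and its recovered reads gave 0.22, which passed (limma voom adjusted p = 1.72e-03). It was smaller without DMSO replicate 1, at 0.14 (limma adjusted p = 0.259), and under quantile normalization, at 0.08 (limma adjusted p = 0.625). CCN2 made up 40.2% ± 0.801 of the summed exon level of CCN1 and CCN2 with Nutlin-3 and 37.1% ± 1.00 with DMSO, and these shares did not overlap (2-sided exact permutation p = 0.1, the smallest possible, adjusted over 5 shares 0.167, n = 3 each).

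Within a library, the exon level of ANKRD1 was 3.30, 3.33 and 3.28 times that of CCN1 with Nutlin-3 and 2.27, 2.14 and 2.02 times with DMSO. This ratio, described after both values were seen, kept the groups apart. DMSO replicate 3 was the highest of the DMSO libraries for all 10 members, while it was the highest for 32.2% of all tested genes. Members share their libraries, so the 10 genes are not separate observations of it. With Nutlin-3, replicates 1, 2 and 3 were the highest for 5, 1 and 4 members, and for 29.8%, 29.8% and 40.4% of all tested genes.

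**Figure D3:**
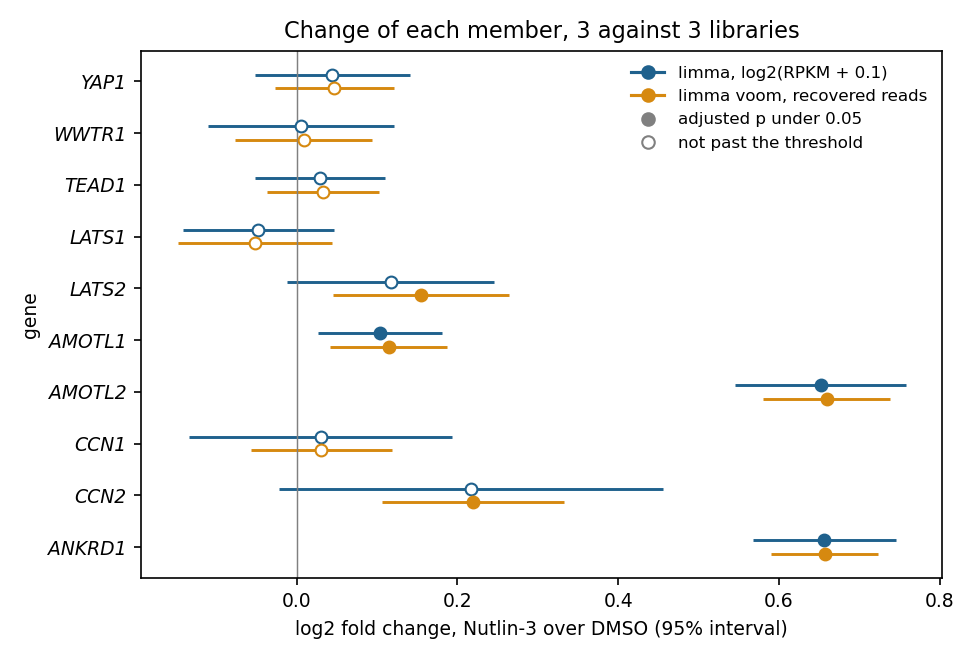
Log2 fold change of each gene, Nutlin-3 over DMSO, with its 95% interval, from limma on log2(RPKM + 0.1) in blue and from limma voom on recovered reads in orange, where filled points have an adjusted p under 0.05. AMOTL2 and ANKRD1 lie near 0.65, CCN2 near 0.22 with an interval that includes 0 on RPKM only, and YAP1, WWTR1, TEAD1, LATS1 and CCN1 have intervals around 0 with either method.

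By exon level, the order of the members was ANKRD1, CCN1, CCN2, YAP1, AMOTL2, TEAD1, AMOTL1, WWTR1, LATS2 and LATS1 with Nutlin-3, and with DMSO it was the same but for AMOTL2 and TEAD1, which changed places. In neither group did the libraries of neighbours in the order overlap. ANKRD1, at the top, had an exon level of 754 ± 25.0 with Nutlin-3 and 478 ± 13.3 with DMSO. LATS1, at the bottom, had an exon level of 4.48 ± 0.148 with Nutlin-3 and 4.65 ± 0.147 with DMSO (SD, n = 3 each). AMOTL2 had an exon level of 31.1 ± 1.45 with Nutlin-3 and 19.7 ± 0.474 with DMSO, and TEAD1, between these values, stood at 27.1 ± 0.847 with Nutlin-3 and 26.5 ± 0.452 with DMSO.

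Beyond the members, 17 other genes of a published signature of YAP and TAZ targets were read. Of the 16 tested, 10 rose, 2 fell and 4 did not pass, 62.5% higher and 12.5% lower against 20.9% and 18.4% of all tested genes, with a median log2 fold change of 0.37 against 0.0058. This list and that of other components below were chosen with earlier results of these data known, so their shares describe and do not test. TGFB2, a growth factor of the TGF-beta family, stood at 3.96, 4.06 and 3.91 RPKM with Nutlin-3 and at 1.71, 1.83 and 1.91 RPKM with DMSO, 2.19-fold higher and with the largest log2 fold change of the list (1.09, limma adjusted p = 1.33e-04). IGFBP3, an insulin-like growth factor binding protein, rose 1.81-fold, CRIM1, a membrane protein that binds growth factors, 1.57-fold and CCDC80, a matrix protein, 1.53-fold. FOXF2, a forkhead factor, fell to 77.1% of its DMSO mean and the receptor tyrosine kinase AXL to 86.9% (limma adjusted p = 0.0153 and 9.70e-03), and the call of FOXF2 was lost without DMSO replicate 3 (adjusted p = 0.0508). IGFBP3 and GADD45A of this list are also known as p53 targets. PTPN14, a phosphatase that binds YAP and is listed both as a target and as a component, stood at 1.06 ± 0.0321 RPKM with Nutlin-3 and 0.990 ± 0.0187 RPKM with DMSO and did not pass (limma adjusted p = 0.0746), though it did when its reads were fitted (limma voom adjusted p = 0.0172).

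Of 37 other components of the pathway, 36 matched an ID and 33 were tested, of which 12 rose, 5 fell and 16 did not pass, 36.4% higher and 15.2% lower against 20.9% and 18.4% of all tested genes, with a median log2 fold change of 0.07 against 0.0058. STK4, which encodes the MST1 kinase upstream of LATS, fell to 0.532, 0.517 and 0.515 RPKM with Nutlin-3, against 0.648, 0.640 and 0.649 RPKM with DMSO (limma adjusted p = 1.37e-03). STK3, the gene of a related MST kinase, was not among the 33 because its mean lay under 0.1 RPKM. Its recovered reads, 735 to 1167 per library, are the smallest integers that keep the proportions among libraries, a lower limit where those integers share a factor. Their implied span of 541425 bases lies below the GENCODE 29 span of 571600 bases. The gene is named after its values were seen. STK3 stood at 81.2% of its DMSO mean with Nutlin-3 (limma voom adjusted p = 1.19e-04). STK38L, an NDR kinase related to LATS, rose to 0.917, 0.846 and 0.810 RPKM with Nutlin-3, against 0.506, 0.587 and 0.600 RPKM with DMSO (limma adjusted p = 3.85e-03). RASSF1, a scaffold that binds MST kinases, had the largest fall of the list, to 62.7% of its DMSO mean (log2 fold change -0.62, limma adjusted p = 1.46e-03). MOB1A, the cofactor of LATS, fell to 87.9% (limma adjusted p = 0.0249), a call lost without Nutlin-3 replicate 1 or 2 or without DMSO replicate 1 or 3, with adjusted p from 0.0571 to 0.0707. WTIP, a LIM protein of the family that restrains LATS, rose to 0.679 ± 0.0455 RPKM with Nutlin-3, against 0.485 ± 0.0171 RPKM with DMSO (limma adjusted p = 3.03e-03), and VGLL3, a cofactor of TEAD, rose 1.35-fold (limma adjusted p = 6.72e-04).

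**Figure D4:**
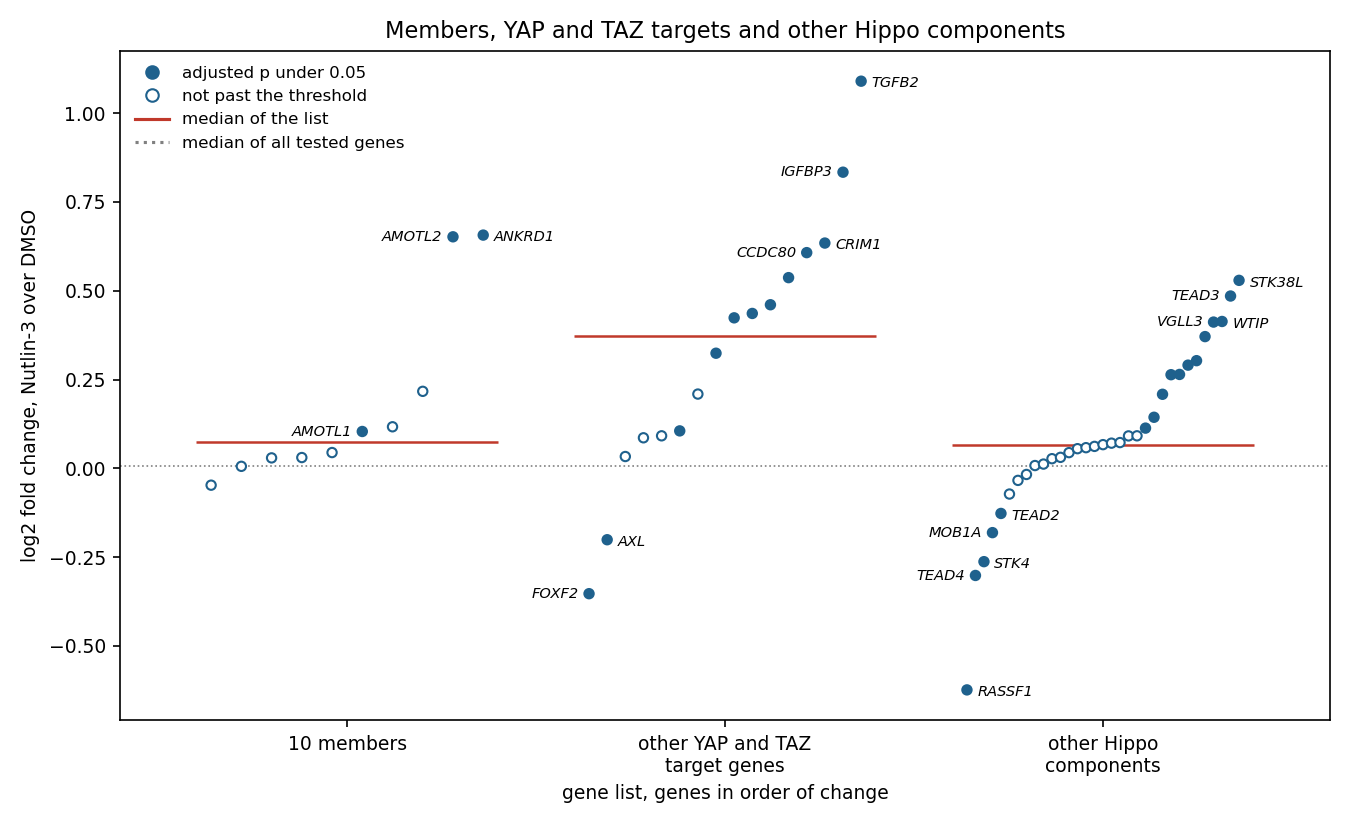
Log2 fold change, Nutlin-3 over DMSO, of the tested genes among the 10 members, the other YAP and TAZ target genes (16) and the other Hippo components (33), each list in order of change, filled where the adjusted p is under 0.05. The red bars mark the list medians of 0.07, 0.37 and 0.07 and the dotted line the median of all tested genes, 0.0058.

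ANKRD1, CCN1 and CCN2 are also known targets of SRF and its cofactors of the MRTF family, which read out actin. Of 12 genes listed as SRF and MRTF targets, 10 were tested and 9 rose, with a median log2 fold change of 0.67, and 1 did not pass. This list and the marker lists that follow were chosen with earlier results of these data known, so the counts describe and do not test. In this and the marker lists that follow, the counts stand against 20.9% higher and 18.4% lower among all tested genes by limma on RPKM, and 26% and 24.3% by limma voom. By limma voom, 10 of the 12 SRF and MRTF targets were higher and 1 lower. Their summed RPKM was 702 to 716 with Nutlin-3 and 453 to 477 with DMSO. Such a sum is led by the short and abundant genes of a list and does not describe each gene. Mesenchymal markers summed to 495 to 524 RPKM with Nutlin-3 and 501 to 549 RPKM with DMSO, with 3 of the 5 tested higher and 0 lower, and 4 higher and 1 lower by limma voom. Epithelial markers summed to 76.1 to 81.2 RPKM with Nutlin-3 and 43.9 to 48.5 RPKM with DMSO, 3 of the 4 tested were higher by either method, and CDH1 and EPCAM were near 0. The part of these lists in the rises of ANKRD1 and AMOTL2 was not tested, and in these bulk libraries a change in every cell cannot be told apart from a change in the share of cells that express a gene.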

How the data were processed

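RNA with poly(A) tails went into strand-specific libraries, per the labels' protocols. CASAVA 1.8.2, TopHat2, edgeR and the build hg19 are named, per the submitters' processing notes, without roles. The read counter, its annotation and use of strand: not given in the sources used here. Values were deposited by the authors as RPKM, with 1 column per library, and 0 columns were left unmapped. Whole reads (tolerance 0.01) were recovered with the GENCODE 29 gene span for 27538 IDs, and for 8825 others as the smallest integers that keep the proportions among libraries, a lower limit where those integers share a factor. TEAD1 and AMOTL1 are among these, and their implied spans of 270330 and 170322 bases lie close to the GENCODE 29 spans of 269893 and 170323 bases. With the span 85.0% of low values were whole, with exon length 17.1%. Library sizes behind the RPKM were 0.962 to 0.981 times the recovered reads with Nutlin-3 and 1.03 to 1.05 times with DMSO.

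Fold changes are on log2(RPKM + 0.1), a scale that understates changes of low genes such as LATS2 and TEAD4. Genes averaging 0.1 RPKM or more were fitted by group alone in limma 3.58.1 under R 4.3.3, with trended eBayes and p-values adjusted by Benjamini-Hochberg. limma voom on recovered reads (mean of at least 10) was an alternative, with the library sizes behind the RPKM. Shares within a family used exact permutation tests. The code was tested on simulated data. Named genes are the 10 members, up to 4 called genes per direction with the largest changes in both larger lists, TEAD2, TEAD3, TEAD4, PTPN14 and AMOT, and CDKN1A and MDM2 as a check. The members and lists were chosen with earlier results of these data known. Chi-square per gene was 1.63 to 4.82 between libraries of a group and 50.6 to 76.9 across groups. Libraries of a group thus differed by more than counting noise and each was counted once, which does not show that they are separate cultures. A comparison of protein sequences was planned and is not analysed here. Overlapping genes could have shared reads: antisense genes cover 9.97% of the exon length of YAP1, 9.45% of WWTR1, 8.34% of CCN2, 4.94% of AMOTL1 and 4.72% of LATS1, and a pseudogene on the same strand 3.13% of AMOTL2.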

Additional observations from a re-analysis of the deposited data

How the results depend on the processing

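ANKRD1 and AMOTL2 kept their rise and their call under all 15 alternatives each, with log2 fold changes from 0.46 (quantile normalization) to 0.68 and from 0.61 to 0.67. AMOTL1 stayed at 0.10 but lost its call when genes under 0.5 RPKM were dropped (adjusted p = 0.0506), without a filter (0.0722), with a minimum of 10 recovered reads (0.0617), with the replicate block (0.112) and in each fit that left out 1 library, which gave 0.082 to 0.12. CCN1 turned to -0.23 under quantile normalization (adjusted p = 0.0520), the cause was not tested, and gave -0.015 to 0.094 when 1 library was left out. WWTR1 turned to -0.0042 under median-of-ratios scaling and gave -0.027 to 0.041 when 1 library was left out. LATS2 gave 0.061 with a pseudocount of 0.5 RPKM (adjusted p = 0.139). LATS2 (0.15) and CCN2 (0.22) passed with limma voom, which called 5 members higher, and CCN2 gave 0.14 to 0.30 when 1 library was left out and 0.08 under quantile normalization (adjusted p = 0.625). WWTR1 and LATS2 fall below a minimum mean of 0.5 RPKM, so that filter gave no value for them.

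The replicate numbers did not pair the libraries: same-numbered libraries deviated from their group means with correlations of -0.034, -0.023 and -0.013. The replicate block called 2954 genes higher and 2566 lower, with 2 other Hippo components and 0 other YAP and TAZ targets lower. Leaving out 1 library gave 3 to 5 and 1 to 2 lower in these lists. The calls of MOB1A, TEAD2, TEAD4, FOXF2 and AXL were lost with the block (adjusted p from 0.0565 to 0.0966). The 5 family shares kept their direction but not their size: the difference for AMOTL2 was 8.92 percentage points and 3.62 with RPKM as deposited, and that for YAP1 was 0.553 and ran from 0.184 to 0.962 when 1 library was left out. LATS2 rests on 823 to 1171 reads per library, the fewest of the members, and the 3 libraries per group limit every test.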

Other observations

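Among the other Hippo components, further genes are named here after their values were seen. Of the LIM proteins that restrain LATS, AJUBA averaged 14.1 ± 0.608 RPKM with Nutlin-3 and 11.4 ± 0.314 RPKM with DMSO (log2 fold change 0.30, limma adjusted p = 3.64e-03), while LIMD1 averaged 0.427 ± 0.0101 RPKM with Nutlin-3 and 0.424 ± 0.000925 RPKM with DMSO and did not pass (limma adjusted p = 0.874, SD, n = 3 each). Upstream of the kinases, NF2, the gene of the membrane scaffold merlin, rose 1.22-fold, FRMD6, a related scaffold, 1.22-fold and the giant cadherin FAT1 1.30-fold (limma adjusted p = 8.65e-03, 1.29e-03 and 2.93e-03). The second NDR kinase, STK38, rose 1.23-fold (limma adjusted p = 1.07e-03).

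Within the CCN family of matricellular proteins, CCN3 fell to 5.39 ± 0.219 RPKM with Nutlin-3, against 6.69 ± 0.157 RPKM with DMSO (SD, n = 3 each, log2 fold change -0.31, limma adjusted p = 2.73e-03). CCN4 was at 0 in every library, and CCN5 and CCN6 had means under 0.1 RPKM.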
